A study of Rattus norvegicus with 12 samples.

Results

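The guide strands of the miR-17-92 cluster were followed through 12 small RNA libraries of rat aorta. The cluster is a single primary transcript that is cut into several hairpins, and the guide is the strand of a hairpin that is loaded into Argonaute to repress target mRNAs, while its partner, the passenger, is mostly degraded. Members were taken by name: rno-miR-17-5p, rno-miR-18a-5p, rno-miR-19a-3p, rno-miR-20a-5p, rno-miR-19b-3p and rno-miR-92a-3p, 6 of the 641 mature miRNAs listed (the rat prefix rno- is left out where several are named). All 6 were listed, and 5 of them reached 1 rpm, a read count scaled to the library's total, in at least 6 of 12 libraries, the filter that 303 of the 641 miRNAs passed. MiR-18a-5p did not pass it.

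The animals were females of the SHR strain, an inbred rat that develops high blood pressure. The control group, given saline, had 6 libraries, and 6 came from a group whose treatment label is EWH, which the labels do not spell out; the series title speaks of peptides made from egg white and of blood pressure. Both groups share strain, sex and tissue, and no age, dose, route or duration is given in the sources used here. The labels do not say whether each library is a different animal, so p-values measure only how much these libraries vary, and that variation may be technical.

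Transcription of the cluster is driven by MYC and E2F factors, and it is known as an oncogenic, growth-promoting locus. The miR-17 and miR-20a guides repress cell-cycle inhibitors and the type II TGF-beta receptor, and miR-92a is known in endothelium as a repressor of KLF2, KLF4 and integrin alpha 5. In vessels the cluster has been studied mainly in endothelial cells and in smooth muscle cells that have left the contractile state.

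The members fall into 4 groups by seed, the bases 2 to 8 from the 5′ end that pair with targets. RefSeq mature sequences of the assembly GRCr8 were found for all 6 members (581 of the 641 listed names matched). They are shown because the seeds define which other miRNAs share their targets, and because near-identical members can share reads. The seed is in capitals.

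miR-17-5p: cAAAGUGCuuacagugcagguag
miR-20a-5p: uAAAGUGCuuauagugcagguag
miR-18a-5p: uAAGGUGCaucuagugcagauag
miR-19a-3p: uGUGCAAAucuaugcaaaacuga
miR-19b-3p: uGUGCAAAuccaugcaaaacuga
miR-92a-3p: uAUUGCACuugucccggccug

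MiR-17-5p and miR-20a-5p have the same seed and differ by 2 substitutions, C1U and C12U, written with the base of miR-17-5p first and counted from the 5′ end. MiR-18a-5p differs from miR-20a-5p inside the seed, at A4G, and at 3 further bases. MiR-19a-3p and miR-19b-3p differ by the single substitution U11C. How the authors dealt with reads that match more than 1 miRNA is not given in the sources used here, so the split within such pairs is uncertain.

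A second point of origin matters for 3 members. RefSeq places the 6 hairpins of the cluster on chromosome 15 and a paralogous cluster of 5 hairpins on the X chromosome (Mir106a, Mir20b, Mir19b2, Mir92a2 and Mir363). MiR-17-5p, miR-19b-3p and miR-92a-3p are encoded in both, with identical mature letters, whereas miR-18a-5p, miR-19a-3p and miR-20a-5p are encoded on chromosome 15 alone. The pair of hairpins that yield miR-17-5p are shown with that guide in capitals, since their guides cannot be told apart while their passenger strands can.

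Mir17, chromosome 15: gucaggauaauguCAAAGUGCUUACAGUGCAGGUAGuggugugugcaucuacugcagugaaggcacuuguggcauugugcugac
Mir106a, chromosome X: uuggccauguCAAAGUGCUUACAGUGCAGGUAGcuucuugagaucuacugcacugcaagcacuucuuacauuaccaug

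Depth was even. The totals behind the deposited values were 23887799 to 24772944 reads, of which 76.4% to 80.6% lay in listed miRNAs, and 1 read was worth 0.0404 to 0.0419 rpm. Libraries carried the miRNAs of the labelled tissue: 4 listed markers of contractile smooth muscle summed to 331970 to 428680 rpm, and 2 listed endothelial markers to 3291 to 12305 rpm. Libraries of the same group, compared in 30 pairs, differed beyond counting noise (chi-square 119 to 3184 per degree of freedom), so no 2 looked like one library deposited more than once. Controls 5 and 6 were the 2 highest libraries in all 6 members, and the main levels and differences are given with and without them.

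The cluster was a minor part of these aortas. The 6 guides together held 27.2 rpm in the lowest control, 38.1 rpm at the control median and 158 rpm in the highest control, against 13.6, 20.5 and 28.7 rpm in the EWH group. In reads that was 338 (EWH 2) to 3875 (control 6). Of the 6 EWH libraries 5 lay below the lowest control, and EWH 5 lay just inside the control range. The summed mean was 62.1 ± 50.3 rpm in controls and 21.2 ± 5.17 rpm with EWH (SD, n = 6 per group), or 2.93-fold higher in control. Control 6 (158 rpm) and control 5 (77.0 rpm) carried much of this, and over controls 1 to 4 the mean was 34.3 ± 5.15 rpm (SD, n = 4), or 1.62-fold that of EWH. Fewer cells of a type that makes the cluster and less RNA per cell cannot be told apart in whole tissue.

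**Figure D1:**
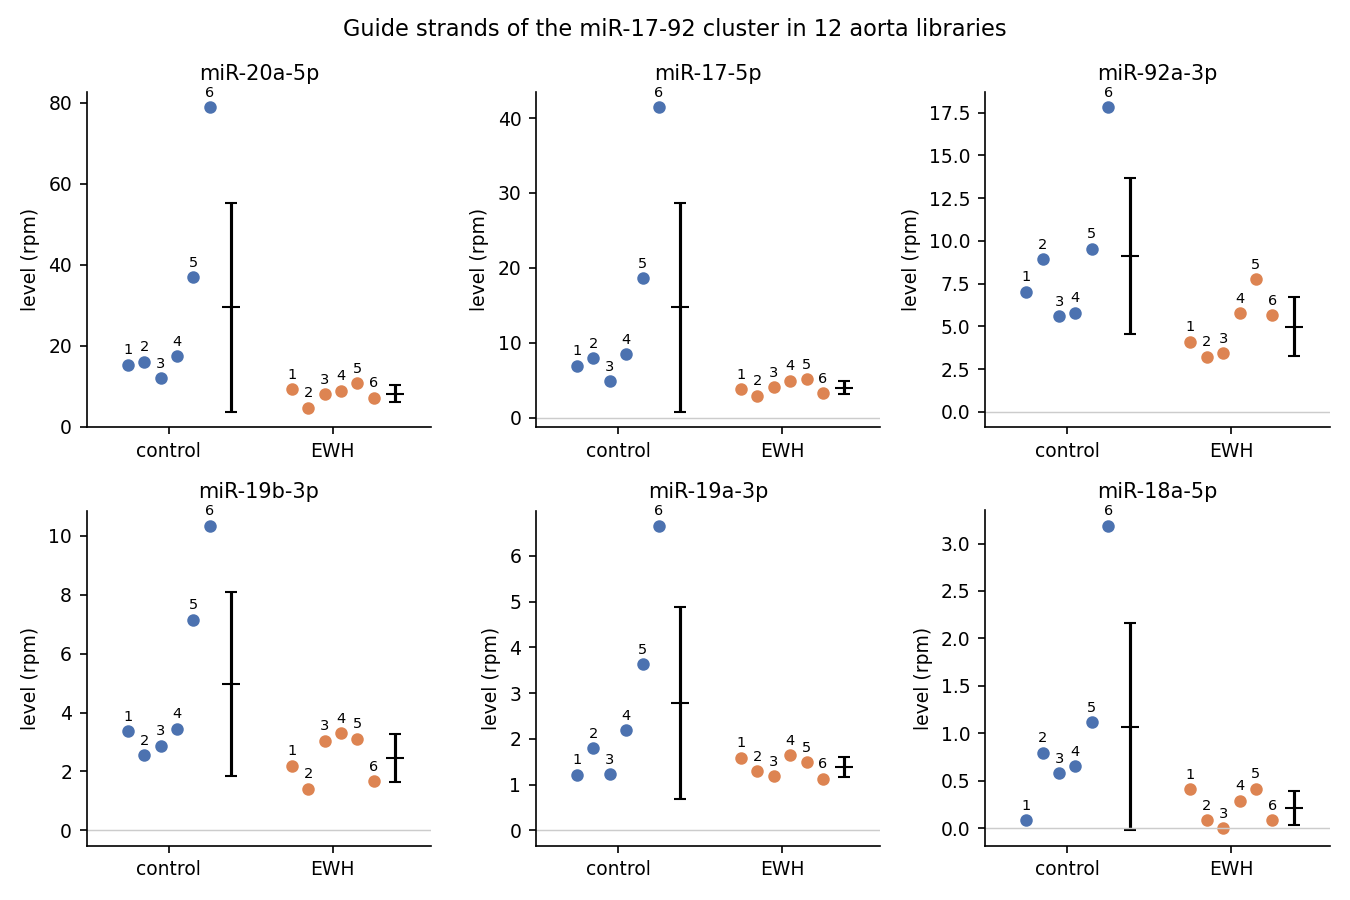
Level (rpm, linear axis from 0) of each guide strand in the 6 control and 6 EWH libraries, with replicate numbers over the points and the group mean ± SD as a black bar. Controls 5 and 6 are the highest libraries in all 6 panels, and only for miR-20a-5p do the groups not overlap.

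The guide rno-miR-20a-5p, which shares targets with miR-17-5p, was the most abundant member. It read 11.97 rpm in the lowest, 16.7 rpm at the median and 78.9 rpm in the highest control, and 4.68, 8.41 and 10.8 rpm in the EWH group. Every EWH library lay below every control, and the gap stood between control 3 (11.97 rpm) and EWH 5 (10.8 rpm). That margin is within counting error, since the exact Poisson intervals (95%) of these 2 libraries were 10.6 to 13.4 rpm and 9.49 to 12.1 rpm; PCR reads are not independent molecules, so such intervals cover counting error only. Means were 29.4 ± 25.8 rpm and 8.10 ± 2.07 rpm (SD, n = 6 per group), and 15.2 ± 2.32 rpm over controls 1 to 4 (SD, n = 4), which is 1.87-fold the EWH mean. Of the 303 tested miRNAs 4, or 1.32%, had every EWH library below every control.

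The guide rno-miR-17-5p, a repressor of cell-cycle inhibitors, read 4.90 rpm in the lowest, 8.24 rpm at the median and 41.4 rpm in the highest control. In the EWH group it read 2.95, 3.97 and 5.15 rpm. The groups met only at control 3 (4.90 rpm), which EWH 4 (4.94 rpm) and EWH 5 (5.15 rpm) exceeded, and 5 of 6 controls lay above the highest EWH library. Means were 14.7 ± 13.9 and 4.05 ± 0.872 rpm (SD, n = 6 per group), with 7.08 ± 1.59 rpm over controls 1 to 4 (SD, n = 4).

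The guide rno-miR-92a-3p, known as a repressor of KLF2 in endothelium, showed more overlap. It read 5.60, 7.98 and 17.8 rpm in the lowest, median and highest control and 3.23, 4.88 and 7.77 rpm in the EWH group. EWH 1, 2 and 3 lay below all controls, while EWH 4, 5 and 6 lay among them. Means were 9.12 ± 4.55 and 4.99 ± 1.74 rpm (SD, n = 6 per group), and 6.84 ± 1.53 rpm over controls 1 to 4 (SD, n = 4).

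The miR-19 pair was lower still in level. The level of rno-miR-19b-3p was 2.55, 3.41 and 10.3 rpm in the lowest, median and highest control and 1.41, 2.63 and 3.29 rpm in EWH. That of rno-miR-19a-3p was 1.22, 1.996 and 6.66 rpm in control and 1.13, 1.39 and 1.65 rpm in EWH. For both members 4 of 6 controls lay above the highest EWH library, and the remaining controls lay among the EWH values. Over controls 1 to 4 the means were 3.06 ± 0.428 rpm for miR-19b-3p and 1.61 ± 0.473 rpm for miR-19a-3p (SD, n = 4), against 2.46 ± 0.807 and 1.39 ± 0.218 rpm in EWH (SD, n = 6).

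The guide rno-miR-18a-5p was close to the limit of detection. It read 0.0812, 0.722 and 3.19 rpm in the lowest, median and highest control and 0, 0.186 and 0.415 rpm in the EWH group. These are counts of 2 (control 1) to 78 (control 6) reads in control and of at most 10 reads in EWH. EWH 3 was listed at 0, which allows up to 0.122 rpm (3 reads). The difference of mean log2(rpm + 1) was −0.65, with 5 of 6 controls above the highest EWH library (two-sided exact permutation over 924 splits, p = 0.026, not adjusted). Without controls 5 and 6 it was −0.32 (exact permutation p = 0.110), and without EWH 2, 3 or 6 the exact permutation p was 0.052 to 0.056.

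Ordered by mean level the members ran miR-20a-5p (18.8 rpm), miR-17-5p (9.39 rpm), miR-92a-3p (7.06 rpm), miR-19b-3p (3.71 rpm), miR-19a-3p (2.09 rpm) and miR-18a-5p (0.640 rpm) over 12 libraries. Mature strands of 21 to 23 bases were compared here by read share, with no correction for length or for ligation preference. Within each of the 12 libraries miR-20a-5p stood above miR-17-5p, miR-92a-3p above miR-19b-3p, miR-19b-3p above miR-19a-3p, and miR-19a-3p above miR-18a-5p. MiR-17-5p and miR-92a-3p were not separated, since miR-17-5p was the higher in 4 libraries and the lower in 8. Among the 641 listed miRNAs miR-20a-5p ranked 99th (control 6) to 211th (EWH 4).

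In the limma fit over all 303 tested miRNAs, on log2(rpm + 1), the 5 members past the filter all had lower means in EWH. The log2 fold change was −1.45 (SE 0.40) for miR-20a-5p and −1.29 (SE 0.41) for miR-17-5p. It was −0.71 (SE 0.27) for miR-92a-3p, −0.68 (SE 0.29) for miR-19b-3p and −0.52 (SE 0.27) for miR-19a-3p. The 95% interval reached from −2.32 to −0.58 for miR-20a-5p and from −1.11 to 0.07 for miR-19a-3p. The median over the 5 was −0.71, beside −0.06 over all tested miRNAs, of which 60.1% had a lower mean in EWH.

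None of the 5 passed limma with Benjamini-Hochberg adjustment over all tested miRNAs (adjusted p = 0.128 for miR-20a-5p, 0.129 for miR-17-5p, 0.163 for miR-92a-3p, 0.183 for miR-19b-3p and 0.275 for miR-19a-3p), nor did any other miRNA (0 of 303, 0%). Before adjustment 4 of the 5, all but miR-19a-3p, had a limma p under 0.05 (23.1% of all tested miRNAs did), where 7.92% of all tested miRNAs were at such a p and lower in EWH. Fitted to the recovered whole reads by quasi-likelihood, edgeR with Benjamini-Hochberg adjustment called 40 miRNAs (13.2%) in either direction, among them miR-20a-5p (log2 fold change −1.81) and miR-17-5p (−1.81) lower, each at adjusted p = 0.031. That is 2 of 5 members where 1.98% of tested miRNAs were called lower. DESeq2 called 4 of the 5 lower, all but miR-19a-3p, where 5.61% were called lower. It was not refitted with libraries left out.

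The edgeR calls of both members ended when control 1, 4, 5 or 6 or EWH 3 or 4 was left out, and that of miR-17-5p also without EWH 6 (Benjamini-Hochberg adjusted p from 0.051 to 0.079). Without controls 5 and 6 together the limma log2 fold change was −0.85 for miR-20a-5p, −0.67 for miR-17-5p, −0.42 for miR-92a-3p, −0.26 for miR-19b-3p and −0.12 for miR-19a-3p, with no member called by limma or edgeR.

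**Figure D2:**
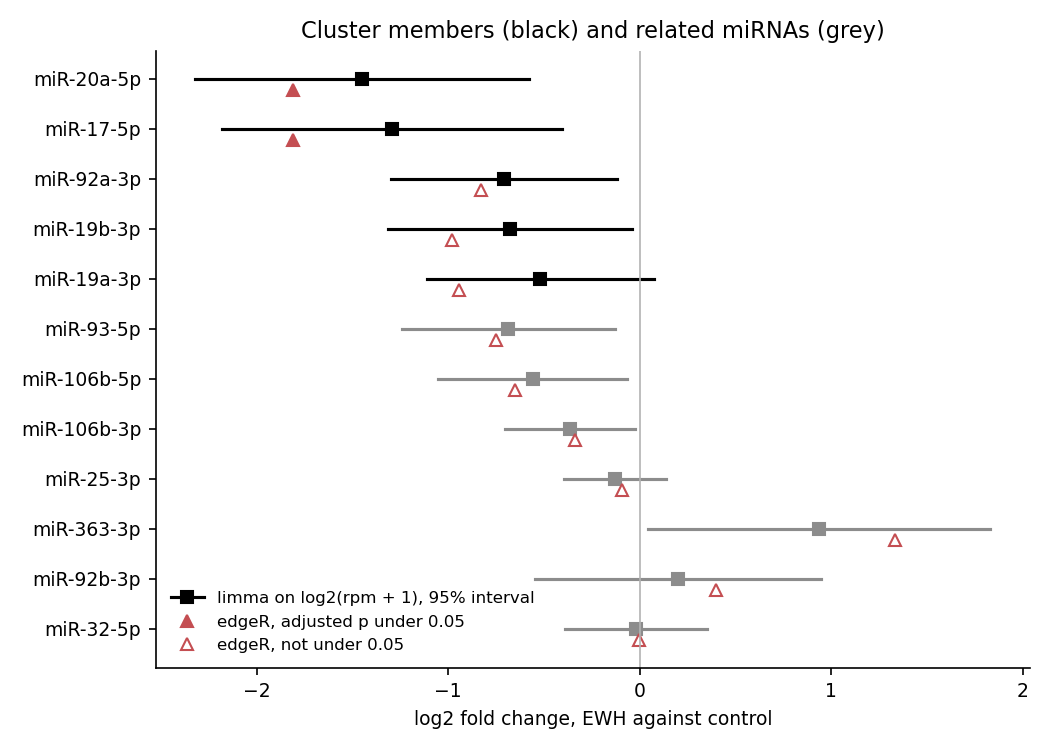
Log2 fold change of EWH against control for the 5 tested members (black) and 7 related miRNAs (grey), from limma with 95% intervals (squares) and from edgeR (triangles, filled where the adjusted p is under 0.05). The members run from −1.45 (miR-20a-5p) to −0.52 (miR-19a-3p) by limma, and the related miR-363-3p lies on the other side of 0, at 0.94, with an interval that does not reach 0.

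The members varied together. Over the 12 libraries the Pearson correlation of log2(rpm + 1) between 2 members ran from 0.811 (miR-19a-3p with miR-92a-3p) to 0.989 (miR-17-5p with miR-20a-5p), over 15 pairs, as a description of libraries that share the group difference and the high controls. With group means removed the range was 0.712 to 0.982. Without controls 5 and 6 it was 0.306 (miR-18a-5p with miR-19b-3p) to 0.954 (miR-17-5p with miR-20a-5p, n = 10 libraries). The ratio of miR-17-5p to miR-20a-5p showed this close link, at 0.480 ± 0.042 in controls and 0.510 ± 0.074 with EWH (SD, n = 6 per group), although miR-17-5p is also encoded on the X chromosome.

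Controls 5 and 6 did not raise all members alike. Against the mean of controls 1 to 4, control 6 was 6.07-fold higher in miR-18a-5p, 5.85-fold in miR-17-5p and 5.20-fold in miR-20a-5p. It was 4.13-fold higher in miR-19a-3p, 3.37-fold in miR-19b-3p and 2.60-fold in miR-92a-3p. Control 5 was 2.63-fold higher in miR-17-5p and 1.39-fold in miR-92a-3p.

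Shares within the cluster differed accordingly. MiR-20a-5p made up 45.8% ± 2.76 of the 6 guides in control and 38.1% ± 3.12 in EWH (SD, n = 6 per group), with 5 of 6 EWH libraries below the lowest control. MiR-92a-3p made up 17.3% ± 5.01 and 23.4% ± 4.62, and miR-19a-3p 4.59% ± 0.716 and 6.78% ± 1.51 (SD, n = 6 per group). Over controls 1 to 4 the shares were 44.3% for miR-20a-5p, 20.02% for miR-92a-3p and 4.66% for miR-19a-3p. In a limma fit of every tested miRNA relative to miR-92a-3p of its own library, miR-20a-5p was lower by a log2 fold change of −0.74 (SE 0.31, 95% interval −1.39 to −0.10). It did not pass (adjusted p = 0.076, Benjamini-Hochberg over 302), and neither did the other 3 tested members (adjusted p from 0.133 to 0.924, limma with Benjamini-Hochberg adjustment). This fit called 21.9% of miRNAs, all of them higher relative to miR-92a-3p, and 46.4% had an unadjusted p under 0.05.

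**Figure D3:**
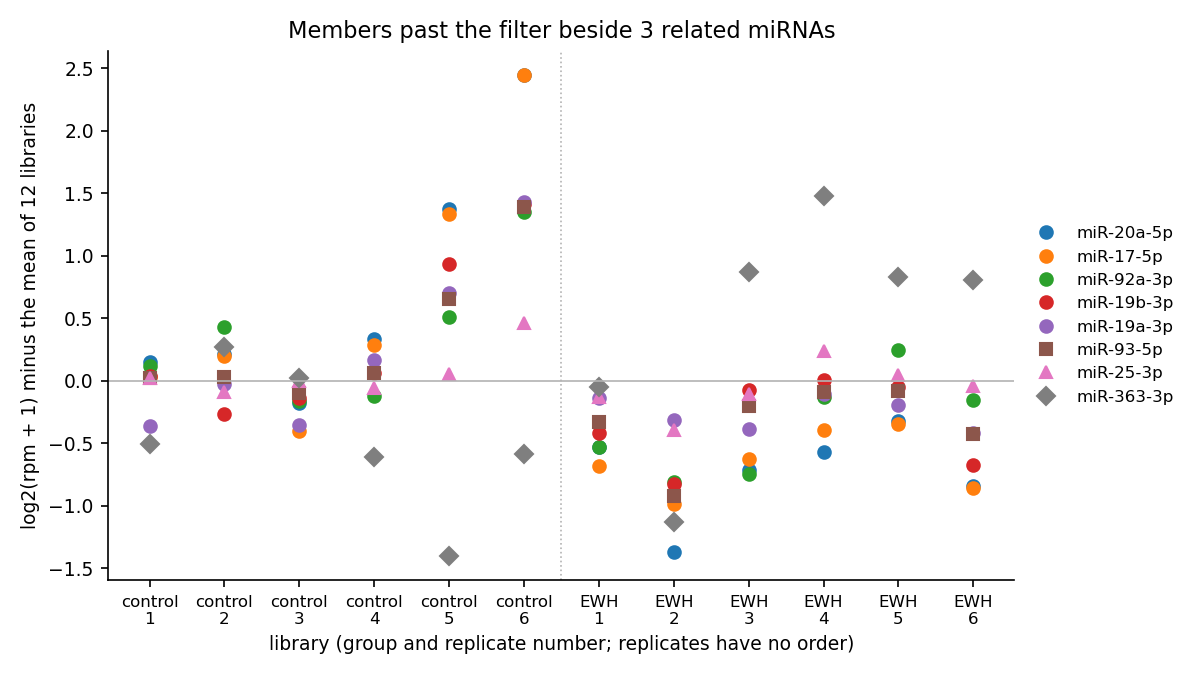
Log2(rpm + 1) of each of the 5 tested members (circles) and of miR-93-5p, miR-25-3p and miR-363-3p in each library, after subtracting its mean over the 12 libraries. MiR-20a-5p and miR-17-5p nearly coincide in controls 5 and 6, miR-93-5p follows them over a smaller range, and miR-363-3p lies opposite to both in controls 5 and 6 and in EWH 3 to 6.

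Passenger strands of the cluster were scarce. Of 7 passenger names, counting miR-17-2-3p from the X copy of miR-17, 6 were listed and none passed the filter. MiR-17-1-3p, the passenger from chromosome 15, averaged 0.487 ± 0.168 rpm in controls and 0.260 ± 0.113 rpm with EWH, and miR-92a-1-5p averaged 0.137 ± 0.035 and 0.068 ± 0.071 rpm (SD, n = 6 per group). MiR-18a-3p, miR-19a-5p and miR-20a-3p held at most 0.291 rpm in a library. In a limma fit of 72 arm ratios, log2((5p + 1)/(3p + 1)), none was called (0%; 22.2% at an unadjusted p under 0.05). The ratio of the miR-20a hairpin differed by −1.43 (SE 0.37, limma adjusted p = 0.064 with Benjamini-Hochberg adjustment), but its passenger held reads in control 2 only (2 reads), so this ratio closely follows the guide's own difference of −1.45 and says nothing of arm use.

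The strands that only the X cluster encodes had, as a sum, the opposite order of group means; of the 5 listed, miR-20b-3p, with at most 2 reads in a library, did not. Summed over these 5 (miR-363-3p, miR-363-5p, miR-20b-5p, miR-20b-3p and miR-17-2-3p) they read 0.785, 2.03 and 4.76 rpm in the lowest, median and highest control and 1.05, 6.88 and 12.7 rpm in EWH. EWH 3, 4, 5 and 6 lay above all controls, while EWH 1 and 2 lay among them. Of the 6 listed markers of neurons and glia none was at 0 in all libraries and 3 passed the filter. Their sum was high in the same EWH libraries, at 686 rpm in EWH 3, 869 rpm in EWH 4, 334 rpm in EWH 5 and 282 rpm in EWH 6. It was 154 rpm in EWH 1, 92.2 rpm in EWH 2 and 58.6 to 151 rpm in the controls. Most of it was miR-9a-5p (EWH mean 250 rpm), miR-338-3p (90.7 rpm) and miR-129-5p (59.8 rpm), while miR-219a-5p held at most 0.082 rpm in a library. EWH 4 was highest and EWH 2 lowest of the EWH group in both sums. The part of these cells in the X-only strands was not tested. The 3 guides encoded only on chromosome 15 summed to 13.8, 19.5 and 88.8 rpm in control and 6.06, 9.97 and 12.7 rpm in EWH. The groups did not overlap, by a narrow margin between control 3 (335 reads) and EWH 5 (305 reads). Most of the chromosome 15 sum was miR-20a-5p (means 29.4 of 33.3 rpm in control and 8.10 of 9.70 rpm in EWH). MiR-18a-5p and miR-19a-3p each overlapped between groups. The 3 guides encoded in both clusters summed to 13.4, 18.6 and 69.6 rpm in control and 7.59, 10.6 and 16.0 rpm in EWH, with 4 of 6 EWH libraries below the lowest control. Group means were 3.43-fold higher in control for the first of these sums of guides and 2.51-fold for the second. Over controls 1 to 4 they were 17.3 ± 2.80 and 16.99 ± 2.58 rpm (SD, n = 4), or 1.79-fold and 1.48-fold the EWH means, and the X-only strands averaged 3.14 ± 1.37 rpm (SD, n = 4). By member, control means were 3.64-fold those of EWH for miR-17-5p (both clusters) and 3.635-fold for miR-20a-5p (chromosome 15 only). They were 2.02-fold for miR-19b-3p (both) and 2.01-fold for miR-19a-3p (chromosome 15 only), 1.83-fold for miR-92a-3p (both) and 5.02-fold for miR-18a-5p (chromosome 15 only). Over controls 1 to 4 these folds were 1.75, 1.87, 1.25, 1.16, 1.37 and 2.47.

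Most of the X-only reads were miR-363-3p, which has the miR-92a seed and averaged 2.04 ± 1.16 rpm in controls and 5.29 ± 3.17 rpm with EWH (SD, n = 6 per group). Its log2 fold change of 0.94 (SE 0.41) did not pass limma (adjusted p = 0.190 with Benjamini-Hochberg adjustment). Nor was miR-363-3p called by edgeR (1.33, edgeR adjusted p = 0.102, Benjamini-Hochberg). It was among the 46 of 303 miRNAs that DESeq2 called higher (1.33, DESeq2 adjusted p = 0.047, Benjamini-Hochberg). Relative to miR-92a-3p, the member with the same seed that may come from the same X transcript, it was higher in EWH by 1.64 (SE 0.43, limma adjusted p = 0.010 with Benjamini-Hochberg adjustment over 302). MiR-92a-3p itself had a log2 fold change of −0.71, so this value holds the differences of both strands. The fit called 21.9% of miRNAs, all higher relative to miR-92a-3p, so the call is not particular to miR-363-3p. Control 5, at 0.496 rpm, was the lowest library in miR-363-3p and the next to highest in the 6 guides. Without controls 5 and 6 no miRNA was called in that fit, and the value for miR-363-3p was 1.09 (limma adjusted p = 0.083, Benjamini-Hochberg). Without EWH 3 and 4 it was 1.25 (limma adjusted p = 0.077, Benjamini-Hochberg). MiR-17-2-3p, the passenger that marks the X copy of miR-17, averaged 0.206 ± 0.205 rpm in controls and 0.542 ± 0.481 rpm with EWH, and miR-20b-5p averaged 0.206 ± 0.135 and 0.439 ± 0.377 rpm (SD, n = 6 per group).

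**Figure D4:**
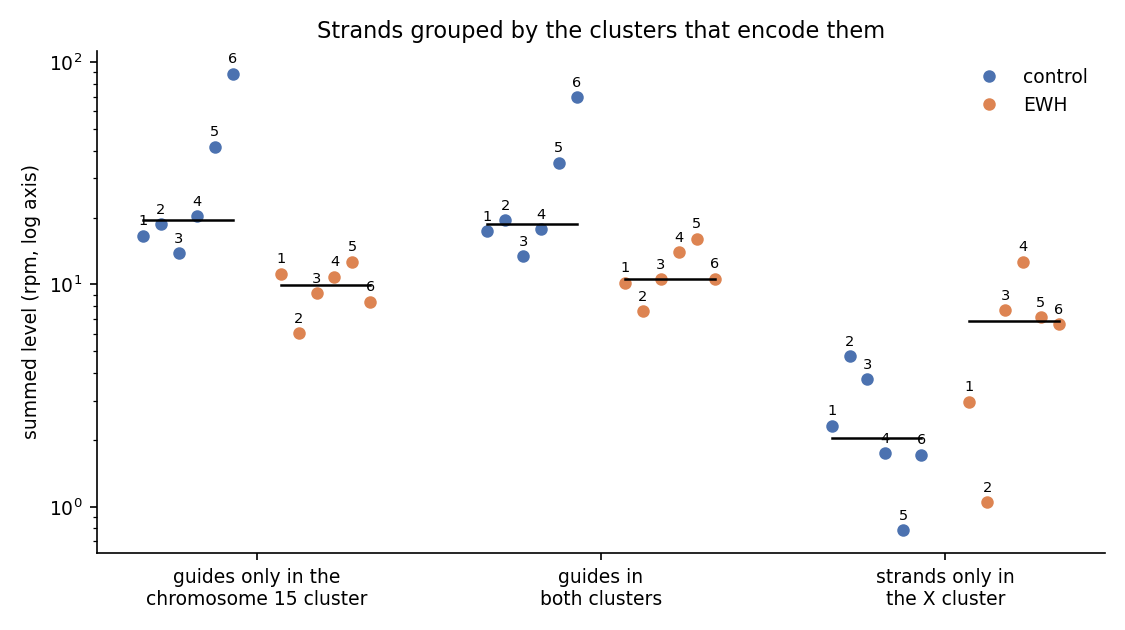
Summed level (rpm, log axis) of the 3 guides encoded only in the chromosome 15 cluster, the 3 encoded in both clusters and the 5 listed strands encoded only in the X cluster, by library with replicate numbers and the group median as a line. The first set, mostly miR-20a-5p, does not overlap between groups, by a narrow margin, and in the third EWH 3 to 6 lie above all controls.

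Members also share seeds with miRNAs of another paralogous cluster, miR-106b-25, on chromosome 12. Its 3 seed partners of the members and miR-363-3p of the X cluster are shown for comparison with the sequences above, again with the seed in capitals.

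miR-93-5p: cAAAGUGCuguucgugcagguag
miR-106b-5p: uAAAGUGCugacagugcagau
miR-25-3p: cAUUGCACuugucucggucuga
miR-363-3p: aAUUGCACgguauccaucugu

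MiR-93-5p differs from miR-17-5p by 4 substitutions, U10G, A11U, C12U and A13C, all outside the seed. The AAAGUGC family had 5 listed miRNAs with a sequence and summed to 112 ± 71.9 rpm in controls and 52.3 ± 10.7 rpm with EWH (SD, n = 6 per group). Its range was 63.2 to 250.3 rpm in control and 33.1 to 62.0 rpm in EWH, so the groups did not overlap, by a narrow margin. Over controls 1 to 4 the sum was 72.8 ± 6.80 rpm (SD, n = 4), or 1.39-fold that of EWH. MiR-17-5p and miR-20a-5p held 35.3% ± 8.13 of the family in control and 23.2% ± 1.68 in EWH (SD, n = 6 per group). Every EWH library (21.3% to 25.7%) lay below every control (26.7% to 48.1%), and the mean over controls 1 to 4 was 30.4%. This margin too was narrow, between EWH 5 (25.7%) and control 3 (26.7%), and was not compared with counting error. How many other such shares separate the groups was not tested. MiR-93-5p held 54.7% ± 6.20 in controls, 58.2% ± 2.96 in controls 1 to 4 and 64.3% ± 0.998 with EWH (SD, n = 6, 4 and 6).

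The other families were led by different genes. MiR-19a-3p and miR-19b-3p were, among the 581 names with a sequence, the only miRNAs with the GUGCAAA seed, and miR-18a-5p the only one with AAGGUGC. In these the cluster supplied the whole listed family, which summed to 7.75 ± 5.18 rpm in controls and 3.85 ± 0.929 rpm with EWH for GUGCAAA (SD, n = 6 per group). That sum over controls 1 to 4 was 4.67 ± 0.679 rpm (SD, n = 4), or 1.22-fold that of EWH. MiR-92a-3p was 2.08% ± 0.666 of the AUUGCAC family in control and 1.27% ± 0.335 in EWH (SD, n = 6 per group). Its share over controls 1 to 4 was 1.75% ± 0.418 (SD, n = 4), and the family summed to 392 ± 11.2 rpm. That family was almost entirely miR-25-3p, at 406 ± 61.9 rpm in controls and 371 ± 53.3 rpm with EWH, and summed to 424 ± 67.8 and 389 ± 60.9 rpm (SD, n = 6 per group).

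**Figure D5:**
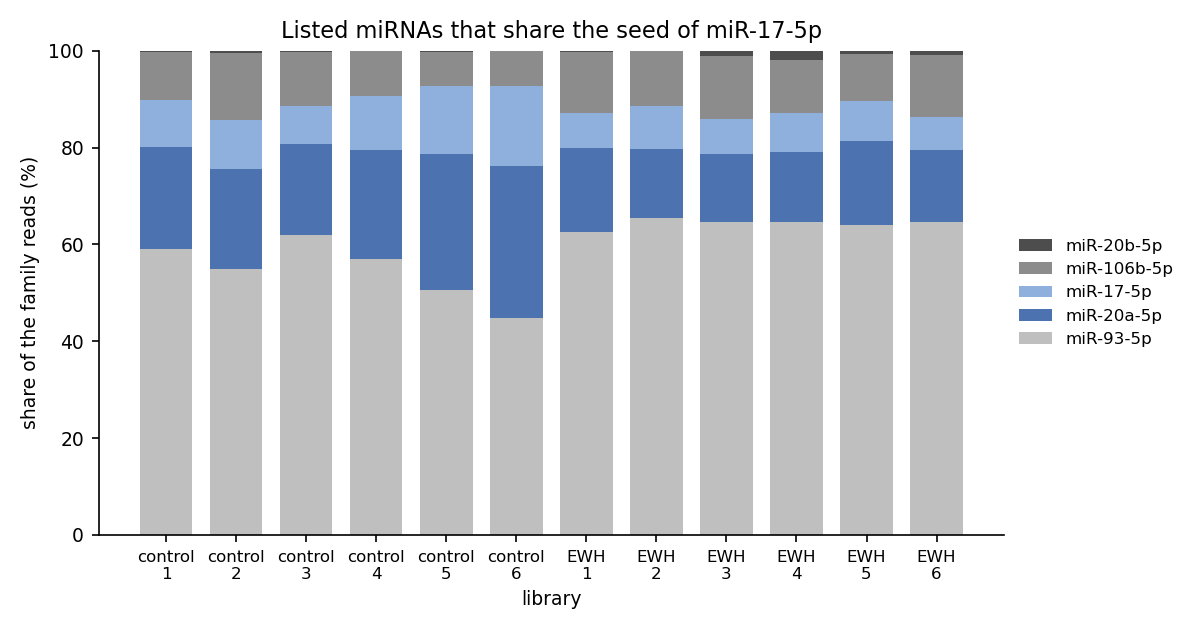
Share (%) of the reads of the 5 listed miRNAs with the seed of miR-17-5p held by each of them, in each library. The cluster members miR-20a-5p and miR-17-5p (blue) hold 26.7% to 48.1% in controls and 21.3% to 25.7% in EWH, and miR-93-5p (light grey) holds most of the rest.

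Across the paralogous miR-106b-25 cluster, which lies in an intron of Mcm7, all 4 tested strands of 6 likewise averaged less with EWH (median log2 fold change −0.46). Of all tested miRNAs 60.1% did. None of the 4 was called by limma or edgeR. DESeq2 called 2 lower, miR-93-5p and miR-106b-5p, where it called 5.61% of all tested miRNAs lower. Over controls 1 to 4 the mean of miR-93-5p was 1.26-fold and that of miR-106b-5p 1.31-fold the EWH mean. The log2 fold change by limma was −0.69 (SE 0.26) for miR-93-5p and −0.13 (SE 0.12) for miR-25-3p, the latter with an interval of −0.40 to 0.13. Of the other strands with the miR-92a seed, miR-32-5p lay near 0 on this scale (−0.02, SE 0.17). MiR-92b-3p was at 0.20 (SE 0.34), with a wide interval of −0.55 to 0.95. It averaged 2.81 ± 1.31 rpm in controls, 2.12 ± 0.451 rpm in controls 1 to 4 and 3.79 ± 2.91 rpm with EWH (SD, n = 6, 4 and 6). Its highest library was EWH 4, at 9.30 rpm.

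Of 182 miRNAs outside the cluster that averaged at least 10 rpm, miR-93-5p had the pattern most like the mean of the standardised log2(rpm + 1) of the 5 tested members, with a Pearson correlation of 0.980 over 12 libraries. The next were miR-200a-3p (0.940), miR-192-5p (0.917), miR-200b-3p (0.910) and miR-106b-3p (0.897). With group means removed the order was miR-93-5p (0.968), miR-192-5p (0.929), miR-200a-3p (0.919), miR-194-5p (0.905) and miR-200b-3p (0.886). For miR-20a-5p alone the first 5 were the same miRNAs in another order, again led by miR-93-5p (0.977), and with group means removed miR-182 (0.875) took the place of miR-200b-3p. These points share libraries and all of them are highest in control 6, so they are a description of likeness and no more.

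Some miRNAs of other cell types were also high in controls 5 and 6, and others were not. MiR-200b-3p, an epithelial miRNA, read 501 rpm in control 6 and 176 rpm in control 5, against 3.54 to 58.6 rpm in the other 10 libraries, of which control 4 was the highest. MiR-200a-3p read 94.7 and 46.6 rpm in these controls and 3.09 to 18.5 rpm elsewhere, and miR-192-5p, known from gut, liver and kidney and named here for its likeness to the cluster, read 308 and 155 rpm against 71.97 to 116.8 rpm. Of the 11 epithelial markers in the list none was at 0 in all libraries, 8 were highest among controls in control 6 and 7 were highest there among all 12. The rest were miR-205, miR-203a-3p and miR-429. In controls 6 and 5 miR-205 read 7.60 and 8.06 rpm (mean of controls 1 to 4, 11.2 rpm) and miR-203a-3p 67.5 and 155 rpm (212 rpm). MiR-429 read 3.15 and 1.86 rpm there (2.43 rpm). MiR-375-3p, highest among controls in control 6 (10.8 rpm), reached 206 rpm in the EWH group. Its mean was 5.13 ± 3.83 rpm in controls and 47.7 ± 81.0 rpm with EWH (SD, n = 6 per group), with an EWH median of 6.48 rpm. The summed level of the 11 was 71.5 to 824 rpm in control, with 446 rpm in control 5, and 100.5 to 399 rpm in EWH. It was not parallel to the cluster throughout, since control 1 stood second in the sum (606 rpm, mostly miR-203a-3p at 572 rpm) with 33.9 rpm in the 6 guides. The endothelial markers did not set these controls apart, with 5453 rpm in control 5 and 5289 rpm in control 6. The leukocyte markers, all 6 tested, summed to 131 to 299 rpm in control and 146 to 232 rpm in EWH, and control 6 was highest among controls in none of them. The 4 erythrocyte markers summed to 80.3 to 364 rpm in control, highest in control 6 but 107 rpm in control 5, and 119 to 384 rpm in EWH. The 5 listed muscle markers summed to 426 to 1366 rpm in control, highest in control 6 with 769 rpm in control 5, and 711 to 1436 rpm in EWH. Markers of neurons and glia summed to 58.6 to 151 rpm in control and 92.2 to 869 rpm in EWH, and none of them was highest among controls in control 6. The part of any of these cells in the levels of the cluster was not tested.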

How the data were processed

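Small RNA of 6 control and 6 EWH aorta libraries was read from the 1 table the authors deposited. Per the labels' protocols, Trizol RNA was ligated to adaptors at both ends and inserts of 15-35 nt were recovered after RT-PCR. The genome build was rn6 per the submitters' processing notes; the aligner, counter, annotation and strand setting were not given in the sources used here. Values as the authors deposited them are RPM, whole reads over 1 total per library: dividing by the value of 1 read gave whole reads for 100% of values within 0.01 read. Columns were matched by each sample's description, with 0 left over.

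Values were taken as log2(rpm + 1), so fold changes of low miRNAs are understated, and miRNAs at 1 rpm or more in at least 6 of 12 libraries were tested with limma 3.58.1 (trend, two-sided, Benjamini-Hochberg, threshold 0.05) in R 4.3.3. EdgeR 4.0.16 and DESeq2 1.42.0 on the recovered reads were alternatives, as were other filters, pseudocounts, scalings, the replicate number as a block, and left-out libraries; edgeR with left-out libraries was added after seeing the data. MiR-18a-5p, below the filter, was compared by exact permutation. On simulated counts of 303 miRNAs limma recovered 76% of 100 2-fold and 97% of 100 4-fold changes with 2 false calls. The simulated miRNAs were drawn independently, with no library high in many of them at once. With so many changed miRNAs, these rates are no estimate of power in the real libraries.

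All 6 members, their passenger strands and related miRNAs were named by rule, as were the 5 miRNAs most like them; names in the marker account were picked after their values were seen, from the marker lists and, for miR-192-5p, from the likeness ranking. The members and lists were chosen with earlier results of these data known. Sequences are RefSeq's (GRCr8), and gene coordinates are not given because the data use another build. Figures used matplotlib 3.10.9.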

Additional observations from a re-analysis of the deposited data

Results flagged for a closer look

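Control 6 stood apart from the other 5 controls in 3 of the 6 members by a gap test within each group (gap to the nearest library over the group's range, Dixon's criterion at 95%). It read 78.9 rpm in miR-20a-5p (gap 0.627 of the range), 17.8 rpm in miR-92a-3p (0.677) and 3.19 rpm in miR-18a-5p (0.667). Chance marks about 1 in 20 groups if values are normally distributed. The gap test used rpm and was not repeated on log2(rpm + 1), the scale of the limma fits. In all, 14 groups were tested, the members and their sum in control and EWH, and the 3 marked share 1 library. No EWH library was marked in any member.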

How the results depend on the processing

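The log2 fold changes of the 5 tested members were negative in all 121 combinations of member and setting (25 settings), and 7 of these passed the threshold. After quantile normalization limma called 8 miRNAs and 1 member, miR-20a-5p (−1.55, adjusted p = 0.046). EdgeR called 40 miRNAs and 2 members (miR-17-5p −1.81, miR-20a-5p −1.81). DESeq2 called 63 and 4 members (miR-17-5p −1.81, miR-20a-5p −1.82, miR-19b-3p −0.98, miR-92a-3p −0.84). Limma called 1 miRNA without controls 5 and 6 and 1 without EWH 3 and 4, neither of them a member. With 1 library left out, limma called 0 to 24 miRNAs (24 without EWH 2) and 0 members. EdgeR then called 0 to 46 miRNAs and 0 to 2 members, with −2.02 to −1.20 for miR-17-5p and −1.995 to −1.25 for miR-20a-5p. It called 0 miRNAs without controls 5 and 6 (miR-17-5p −0.81, miR-20a-5p −0.91) and 0 without EWH 3 and 4 (−1.79 and −1.75). The difference of miR-18a-5p was −0.32 without controls 5 and 6, −0.61 without EWH 3 and 4, and −0.81 to −0.42 with 1 library left out. Relative to miR-92a-3p, the number of calls was 0 without controls 5 and 6, 27 without EWH 3 and 4, and 49 to 118 with 1 library left out. There miR-19b-3p, near 0, turned negative with a pseudocount of 0.1 (−0.046), without EWH 3 and 4 (−0.17), without control 2 (−0.11) and without EWH 3 (−0.10), within −0.11 to 0.14 over single libraries left out. Arm ratios had 3 calls with a pseudocount of 5, 2 without controls 5 and 6 and 0 to 4 with 1 library left out. The causes of these differences were not tested. With the replicate number as a block (replicate block), no call of a member changed (miR-20a-5p −1.45, limma adjusted p = 0.223). Same-numbered libraries correlated at −0.50 to 0.31, and 0 of 6 pairs matched best by number. The labels state no pairing, and 6 pairs are too few to exclude one. MiR-18a-5p was not fitted with the block. At 1 read = 0.0404 to 0.0419 rpm, depth limits miR-18a-5p and the passenger strands most.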
